A study of Mus musculus with 18 samples.

Results

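The islet hormones and endocrine genes described here are 10 genes: insulin (Ins1, Ins2), amylin (Iapp), glucagon (Gcg), somatostatin (Sst), pancreatic polypeptide (Ppy), peptide YY (Pyy), ghrelin (Ghrl), the granule protein chromogranin A (Chga) and the transcription factor Pdx1. They were picked by symbol from the 55291 genes listed in the deposited pancreas counts, and all 10 symbols were found. The study concerns Otub2, a deubiquitinating enzyme, in the pancreatic beta cell. RNA from pancreas and liver of Otub2 knockout and wild-type mice was read by a bulk form of MARS-seq, which counts the 3′ ends of transcripts. Pancreas gave 3 libraries of homozygous knockouts (HOM, OTUB2 -/-, 3 male), 5 of heterozygotes (HET, OTUB2 +/-, 2 female and 3 male) and 3 of wild types (WT, OTUB2 +/+, 1 female and 2 male). Liver, the background tissue, gave 5 HET and 2 WT libraries of unstated sex. Age, strain, the deleted part of Otub2 and whether the knockout acts in every cell are not stated by the labels. Libraries are called by genotype and the submitters' replicate number. The labels do not say that each sample is a separate mouse, so p-values measure the spread between these samples, which may be technical.

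Islets of Langerhans are small groups of endocrine cells set in the exocrine pancreas. Beta cells make insulin and amylin, alpha cells glucagon, delta cells somatostatin, PP cells pancreatic polypeptide and the rare epsilon cells ghrelin. Each hormone is made as a precursor, cut in the secretory pathway and stored in granules with proteins such as chromogranin A. In mice most circulating ghrelin comes from endocrine cells of the stomach lining, which also hold chromogranin A, and somatostatin is made there too. Mice have a pair of insulin genes, of which Ins2 is the ancestral gene and Ins1 a retroposed copy.

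The promoters of the 3 members with the most counts are printed to show the sequence from which each is transcribed, each running from 250 bases before the start to 49 bases beyond the first transcribed base. They are from RefSeq (GRCm38.p6, the build mm10) and hold 300 bases, written in the gene's own direction. Capitals mark TAAT on either strand (read as TAAT or ATTA, the core of sites bound by homeodomain factors such as PDX1), CANNTG (the E-box of helix-loop-helix factors), TGACGTCA (the cAMP response element) and TATAAA on either strand (the TATA box). No match overlapped another in these 3 promoters. The Ins1 promoter lies at chr19:52264047-52264346 on the plus strand, the Ghrl promoter at chr6:113719862-113720161 on the minus strand (of 4 RefSeq starts, the one nearest the GENCODE start) and the Chga promoter at chr12:102554691-102554990 on the plus strand.
Ins1: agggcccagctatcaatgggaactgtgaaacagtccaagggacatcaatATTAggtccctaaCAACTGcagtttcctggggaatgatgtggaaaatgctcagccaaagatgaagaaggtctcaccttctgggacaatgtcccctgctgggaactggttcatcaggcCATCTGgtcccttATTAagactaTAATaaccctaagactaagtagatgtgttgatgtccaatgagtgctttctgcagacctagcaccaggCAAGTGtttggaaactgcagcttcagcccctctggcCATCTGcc
Ghrl: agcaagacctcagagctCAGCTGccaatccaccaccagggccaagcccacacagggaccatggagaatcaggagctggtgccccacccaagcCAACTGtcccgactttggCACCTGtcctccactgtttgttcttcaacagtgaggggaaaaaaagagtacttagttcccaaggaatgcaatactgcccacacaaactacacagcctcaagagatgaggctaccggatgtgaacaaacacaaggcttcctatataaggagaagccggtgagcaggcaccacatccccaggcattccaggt
Chga: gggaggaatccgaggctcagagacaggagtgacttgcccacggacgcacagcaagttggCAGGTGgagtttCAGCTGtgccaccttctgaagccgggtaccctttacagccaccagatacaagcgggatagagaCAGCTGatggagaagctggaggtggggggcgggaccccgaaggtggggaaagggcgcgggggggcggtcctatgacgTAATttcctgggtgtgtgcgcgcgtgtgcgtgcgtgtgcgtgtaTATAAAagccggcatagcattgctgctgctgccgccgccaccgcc

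The Ins1 promoter held 3 TAAT matches and 4 E-boxes. The Ghrl promoter held 0 TAAT matches and 3 E-boxes. The Chga promoter held 1 TAAT match, 3 E-boxes and 1 TATA box. Among all 32851 RefSeq mouse promoters of this length, 58.0% held TAAT, 72.3% an E-box, 1.79% the cAMP response element and 13.6% the TATA box, so TAAT and E-boxes are common in any such window. RefSeq promoters were matched for 9 of the 10 members, and the cAMP response element was found in 1 of the 9, that of Sst. These matches are letters in a window and do not show that a factor binds.

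Depth differed widely between libraries and sets what could be seen of the members. Pancreas totals were 50663 to 205103 counts in HOM, 49502 to 1326541 in HET and 63483 to 188496 in WT, and liver totals were 155201 to 1686234. A library with 0 counts of a gene allows a level of up to 3 counts, which in pancreas is 2.26 CPM in HET 11 and 60.6 CPM in HET 9 (CPM, the counts a library would hold at a total of 1000000). These limits, and all intervals given, cover counting error only. HET 11 and HET 16 stood apart: a list of stomach mucosa genes made up 22.9% and 19.2% of their counts, against 0.00184% to 2.57% in the other 9 pancreas libraries. Olfactory and vomeronasal receptor genes, which pancreas is not known for, made up 0.0151% and 0.0252% of the counts in HET 11 and HET 16, against 0.242% to 0.728% in the others. Of 23 acinar genes, which define exocrine pancreas, 12 were at 0 in all 11 pancreas libraries, among them the trypsinogen genes Prss1 and Prss2 and the amylase genes Amy2a5 and Amy2b, while the list as a whole made up 16.5% of the counts in HET 11 and 6.29% in HET 16, led by colipase (Clps) with 188192 counts in HET 11. Otub2 itself had 1, 0 and 0 counts in HOM 10, 19 and 21, 0, 0, 0, 0 and 1 in HET 9, 10, 11, 15 and 16, and 3, 4 and 3 in WT 11, 12 and 16. Since the deleted part is not given, it is not known whether a 3′ count can check the genotype.

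Counts of 8 of the 10 members were found in pancreas, and all 10 had 0 counts in all 7 livers. Glucagon (Gcg) and peptide YY (Pyy) had 0 counts in all 11 pancreas libraries as well. The members together had 3769 counts, of which 3157 (83.8%) were Ghrl, and 93.4% of the 3769 were in HET 11 and HET 16. WT 11 and WT 12 had 0 counts of every member. Per library, 2 to 4 members were detected in HOM, 1 to 4 in HET and 0 to 2 in WT. By comparison, 20274 of the listed genes (36.7%) had at least 1 count in pancreas and 18552 (33.55%) had at least 1 in liver. In whole tissue, fewer endocrine cells and less RNA per cell cannot be told apart.

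**Figure D1:**
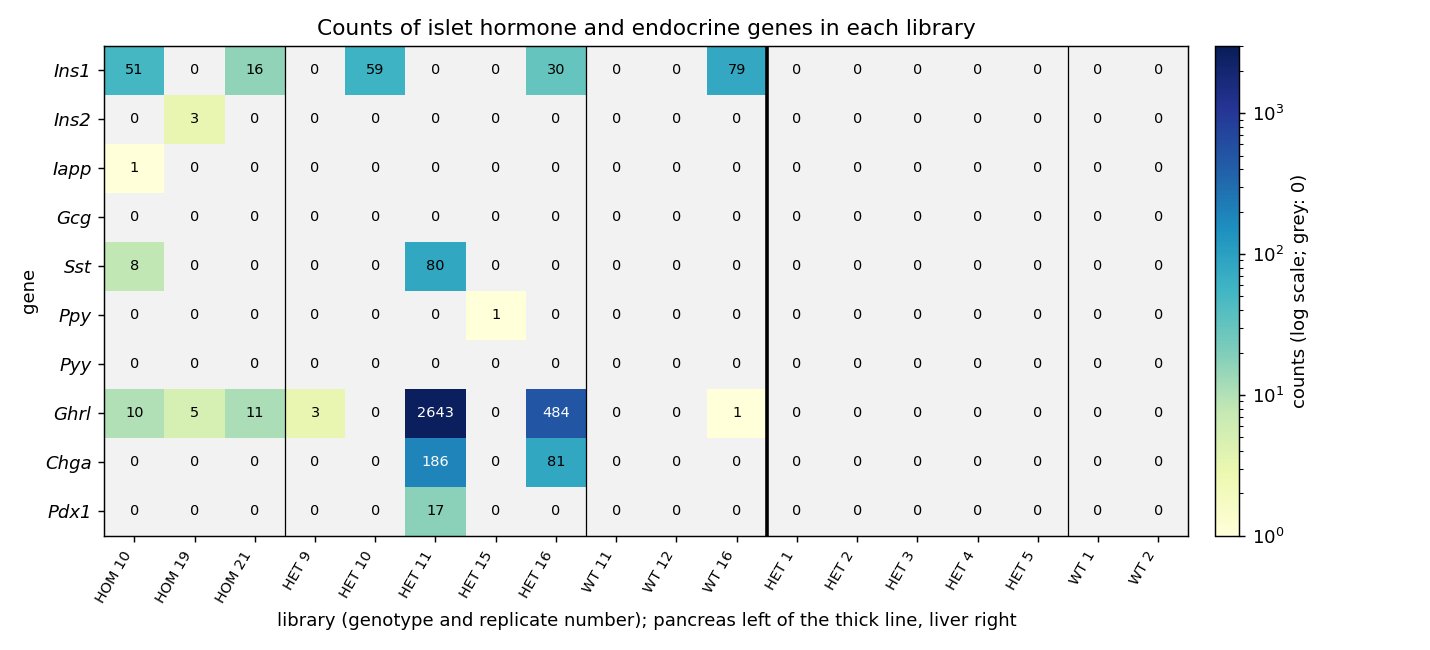
Counts of the 10 members (rows) in each library (columns, pancreas left of the thick line and liver right of it), coloured on a log scale with grey for 0. Ghrl has the highest count, 2643 in HET 11, Ins1 appears in 5 scattered pancreas libraries, and all liver cells of the grid are 0.

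Ins1 (chr19, 52264297 to 52265476, plus strand, 2 exons), whose promoter is printed above, was found in all 3 genotypes but only in some libraries of each. HOM 10, 19 and 21 had 51, 0 and 16 Ins1 counts. HET 9, 10, 11, 15 and 16 had 0, 59, 0, 0 and 30 Ins1 counts. WT 11, 12 and 16 had 0, 0 and 79 Ins1 counts. Each genotype thus held libraries with Ins1 and libraries with none, and the groups overlapped throughout.

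As a level, Ins1 was at 249 CPM in HOM 10 (95% Wilson interval 189 to 327) and 124 CPM in HOM 21 (76.5 to 202). In HET it was at 756 CPM in HET 10 (586 to 974) and 44.7 CPM in HET 16 (31.3 to 63.9). WT 16 had 419 CPM (336 to 522). The highest level was therefore in a HET library and the next in a WT library, and their intervals did not overlap. Where Ins1 had 0 counts, the limit was 59.2 CPM in HOM 19, 60.6, 2.26 and 18.5 CPM in HET 9, 11 and 15, and 37.0 and 47.3 CPM in WT 11 and WT 12. HET 11, the deepest pancreas library, had none at a limit under every level measured elsewhere. Mean Ins1 was 124 ± 124 CPM in HOM (SD, n = 3), 160 ± 333 CPM in HET (SD, n = 5) and 140 ± 242 CPM in WT (SD, n = 3), so the order HET, WT, HOM of these means rests on differences well inside each group's spread.

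Ins2 (chr7, 142678656 to 142743381, minus strand), the other insulin gene, had 3 counts, all in HOM 19 (59.2 CPM), and 0 in the other 10 pancreas libraries. HOM 19 was the one HOM library with 0 Ins1 counts. In no pancreas library were both insulin genes found. The coding sequences of Ins1 and Ins2 were 90.7% identical (302 of 333 aligned columns), with a longest identical run of 56 bases, while after the stop codon the longest shared run was 22 bases. How reads matching both genes were counted was not given, so the split between Ins1 and Ins2 is uncertain. Iapp, the amylin that beta cells release with insulin, had 1 count, in HOM 10.

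Ghrl (chr6, 113716119 to 113719880, minus strand, 5 exons in its first annotated transcript) was the member with the most counts and the one found in most libraries, 7 of 11. HOM 10, 19 and 21 had 10, 5 and 11 Ghrl counts. HET 9, 10, 11, 15 and 16 had 3, 0, 2643, 0 and 484 Ghrl counts. WT 11, 12 and 16 had 0, 0 and 1 Ghrl counts. All 3 HOM libraries held Ghrl at similar levels, HET ranged from 0 to 2643 counts, and WT was at or near 0.

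Ghrl levels were 48.8, 98.7 and 85.4 CPM in HOM 10, 19 and 21, with 95% Wilson intervals of 26.5 to 89.8, 42.2 to 231 and 47.7 to 153 CPM. HET 9, 11 and 16 had 60.6 CPM (20.6 to 178), 1992 CPM (1918 to 2070) and 722 CPM (660 to 789). WT 16 had 5.31 CPM (0.936 to 30.1). The 3 HOM intervals overlapped each other and that of HET 9, while HET 11 and HET 16 lay above them all. The limits in the libraries with 0 counts were 38.4 and 18.5 CPM in HET 10 and HET 15, and 37.0 and 47.3 CPM in WT 11 and WT 12. Mean Ghrl was 77.6 ± 25.9 CPM in HOM (SD, n = 3), 555 ± 859 CPM in HET (SD, n = 5) and 1.77 ± 3.06 CPM in WT (SD, n = 3).

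**Figure D2:**
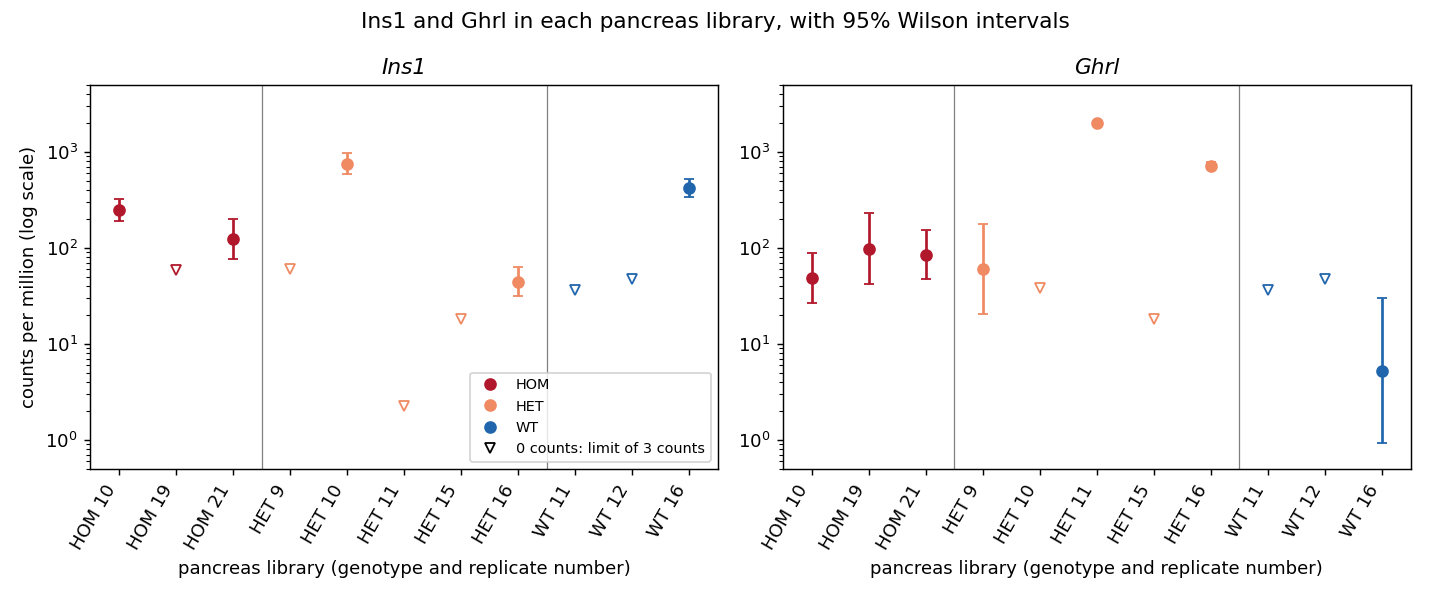
Ins1 and Ghrl levels (CPM) in each pancreas library, by genotype, with 95% Wilson intervals; open symbols mark libraries with 0 counts, at their limit of 3 counts. Measured Ghrl was higher in all 3 HOM libraries (48.8 to 98.7 CPM) than in WT (at most 5.31 CPM). The limits in WT 11 and WT 12, with 0 counts, were 37.0 and 47.3 CPM. Ins1 was present in 2 HOM, 2 HET and 1 WT library.

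Genes of the stomach lining largely moved with Ghrl, and those of other epithelia did so in part. The stomach mucosa list's summed level was 5100, 16738 and 6625 CPM in HOM 10, 19 and 21, 25676, 1831, 228861, 18.4 and 192242 CPM in HET 9, 10, 11, 15 and 16, and 24.6, 31.5 and 90.2 CPM in WT 11, 12 and 16. Every HOM library was above every WT library in this sum, as for Ghrl. Of the list's 15 genes in the table, 14 had pancreas counts and Lipf had 0. Pgc, the pepsinogen C of stomach glands, had the most counts. In libraries with at least 100 Pgc counts, Ghrl counts per 100 Pgc counts were 2.62, 1.62 and 3.00 in HOM 10, 19 and 21, and 0.605, 0, 1.60 and 0.600 in HET 9, 10, 11 and 16. Among these libraries Ghrl varied less relative to Pgc than it did in CPM, apart from HET 10, which had 121 Pgc counts and 0 Ghrl counts. Acinar genes, summed, were at 4232, 15988 and 4210 CPM in HOM 10, 19 and 21, 15838, 730, 165037, 104 and 62854 CPM in HET 9, 10, 11, 15 and 16, and 1158, 173 and 154 CPM in WT 11, 12 and 16. This sum too was higher in every HOM than in every WT library and highest in HET 11 and HET 16. Clps and Pla2g1b held 215602 and 48209 of the list's 264289 counts. Pnliprp1 means did not follow this order, at 289 ± 140 CPM in HOM (SD, n = 3), 52.8 ± 42.3 CPM in HET (SD, n = 5) and 387 ± 534 CPM in WT (SD, n = 3). Its counts were 32, 14 and 56 in HOM 10, 19 and 21, and 81, 10 and 1 in WT 11, 12 and 16. The WT mean thus rested mostly on WT 11, and HOM and WT overlapped. Cela1 averaged 0 CPM in HOM and 46.0 CPM in WT, the latter on 26 counts in WT 16 alone. The duct list was also highest in HET 11 and HET 16 (10879 and 9247 CPM), as was Apoa1, of the liver list, with 5031 and 1883 counts. But WT 12, with 0 Ghrl counts, had 1244 CPM of the duct list, above HOM 10 and HOM 19 at 790 and 1007 CPM. The part of these lists in the Ghrl differences was not tested.

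**Figure D3:**
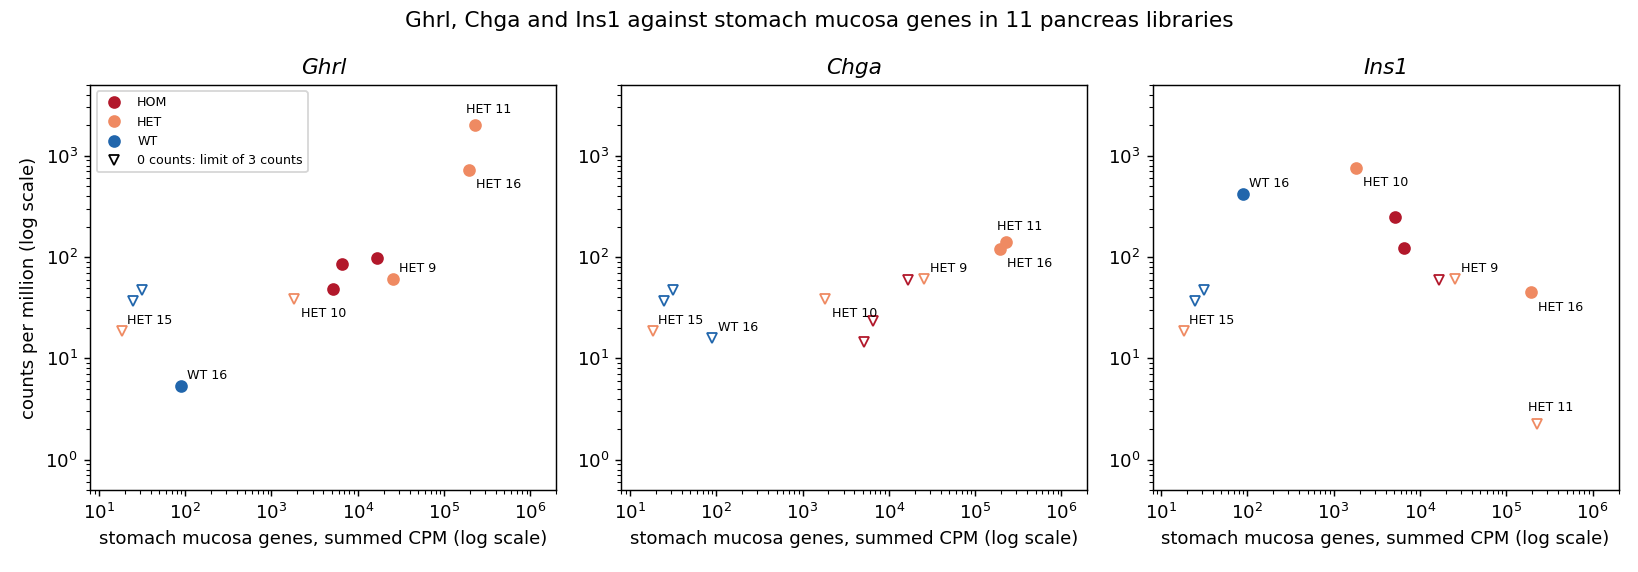
Levels of Ghrl, Chga and Ins1 (CPM, a panel each) against the summed CPM of the stomach mucosa list in the 11 pancreas libraries, on log axes, coloured by genotype, with open triangles for 0 counts at the limit of 3 counts. Ghrl is highest in HET 11 and HET 16 (1992 and 722 CPM), which have the most stomach mucosa counts, Chga is found in those libraries alone, and Ins1 is highest in HET 10 and WT 16.

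Chga (chr12, 102554969 to 102565028, plus strand), which packs hormones into granules in many endocrine cells, was found in HET 11 with 186 counts (140 CPM) and in HET 16 with 81 counts (121 CPM). It had 0 counts in the 3 HOM, the other 3 HET and the 3 WT libraries. Chga counts per 100 Ghrl counts were 7.04 in HET 11 and 16.7 in HET 16. The HOM libraries, with 26 Ghrl counts among them, were too shallow to show whether Chga accompanied Ghrl there at the lower of these ratios.

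Sst (chr16, 23889573 to 23890958, minus strand), the inhibitory hormone of delta cells, had 8 counts in HOM 10 (39.0 CPM), 80 counts in HET 11 (60.3 CPM) and 0 in the other 9 pancreas libraries. Sst averaged 13.0 CPM in HOM and 12.1 CPM in HET by library totals, but 10.1 CPM in HOM and 68.9 CPM in HET by TMM effective library sizes, so how the groups compare depends on the scaling. Pdx1 (chr5, 147269959 to 147275848, plus strand), a factor needed to form the pancreas and to keep beta cells mature, had 17 counts, all in HET 11 (12.8 CPM). At 12.8 CPM it would have been under the 3-count limit of 9 of the other 10 pancreas libraries, all but HET 16. The antisense gene Plut, which overlaps Pdx1, had 7 counts, also all in HET 11. Whether strand was used in counting was not given, so Pdx1 and Plut reads cannot be told apart. Ppy, the hormone of PP cells, had 1 count, in HET 15 (6.15 CPM).

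In HOM against WT pancreas, measured Ghrl separated the groups and Ins1 did not. WT 11 and WT 12 had 0 Ghrl counts, at limits of 37.0 and 47.3 CPM. The interval of HOM 10 (26.5 to 89.8 CPM) began below both limits, so counting error alone could close that gap. All 3 HOM libraries had more Ghrl CPM than all 3 WT libraries, the only one of the 5 members with counts in these groups to do so. Over all 15283 genes with counts in these libraries, 418 (2.74%) were higher in every HOM than in every WT library and 180 (1.18%) were lower in every HOM library. Pooled, 26 Ghrl counts in HOM against 1 in WT gave a ratio of 22.5 in CPM (95% exact interval 3.70 to 924). The exact permutation test of the difference, 75.9 CPM (HOM minus WT), gave p = 0.1 (two-sided, n = 3 and 3), the smallest p that 20 splits allow, and an adjusted p of 1 over all genes, so no gene could pass (0 called, 0% of 15283). For Ins1 the mean difference was −15.4 CPM and the exact permutation p was 1. Its pooled ratio of 0.735 (0.523 to 1.03) spanned 1. All HOM were male, and among males alone Ghrl averaged 77.6 CPM in HOM and 0 CPM in WT (exact permutation p = 0.2, n = 3 and 2), and Ins1 124 CPM in HOM and 0 CPM in WT (exact permutation p = 0.6). The males are the libraries left without WT 16, the only female in these groups, so in both the Ins1 difference had the opposite sign, at 124 CPM. Sst in HOM, pooled, was at least 2.31-fold above the WT limit of 3 counts over the group, on 8 counts from HOM 10 alone.

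By edgeR's quasi-likelihood test on the counts, with sex in the model, 3719 genes were abundant enough to test, among them 2 members, Ghrl and Ins1. The log2 fold change (HOM over WT) was 6.12 ± 3.57 for Ghrl (SE, edgeR Benjamini-Hochberg adjusted p = 1) and −0.42 ± 8.08 for Ins1 (SE, adjusted p = 1). Each edgeR SE given here is the absolute log2 fold change divided by the square root of the test's F statistic. It is not a separate estimate of precision. Neither member was called by edgeR, nor was any gene (0 of 3719, 0%), with 185 genes at an unadjusted p under 0.05 and 2 genes called by DESeq2, Ins1 not among them. Over the 3719 genes the median of this log2 fold change was 0.19, and −0.05 when scaled by library totals. DESeq2 gave no p for Ghrl.

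In HET against WT pancreas, Ghrl and Chga were far higher in HET 11 and HET 16 and near or under the limits in the rest. By exact permutation 0 of 6 members with counts in these groups passed an unadjusted p of 0.05, against 252 of 18237 genes (1.38%). For Ghrl the mean difference was 553 CPM (exact permutation p = 0.357, two-sided, n = 5 and 3). For Chga it was 52.2 CPM (exact permutation p = 0.714), and for Ins1 20.4 CPM (exact permutation p = 1). The adjusted p was 1 for each of these. With 56 splits only a full separation of the groups can pass, so the count by library is the same result. No member was higher, or lower, in every HET than in every WT library, as 52 (0.285%) and 200 (1.1%) of the genes were. At such low shares, 0 of 6 does not set the members apart from other genes. Without HET 11 and HET 16 the Ghrl difference was 18.4 CPM (exact permutation p = 1, n = 3 and 3). Without HET 11 alone it was 194 CPM, and the Chga difference 30.2 CPM, and without HET 16 alone the Chga difference was 35.0 CPM. Scaled by TMM effective library sizes in place of totals, the difference was 2822 CPM for Ghrl and 250.3 CPM for Chga, with the same exact permutation p-values.

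Pooled counts of HET weigh its deepest libraries most. The pooled Ghrl ratio of HET to WT was 456 (95% exact interval 81.8 to 18014), on 3130 counts in HET and 1 in WT. Chga in HET was at least 12.96-fold above the WT limit, and Sst at least 3.88-fold. The pooled Ins1 ratio was 0.164 (0.120 to 0.225), below 1, while the mean of the library levels was higher in HET than in WT. Pooled and mean Ins1 thus went opposite ways, with HET 11 giving 1326541 counts to the HET pool and 0 of Ins1. Pdx1, pooled over HET at 7.43 CPM, was under the WT limit of 9.00 CPM.

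With edgeR, the log2 fold change (HET over WT) was 10.17 ± 3.89 for Ghrl (SE, edgeR adjusted p = 0.124) and 0.05 ± 11.45 for Ins1 (SE, adjusted p = 1). In the fit without sex the Ins1 value was 0.20 ± 1.90 (SE), so this SE was unstable. Ghrl did not pass the adjusted threshold of 0.05, and neither did any of the 3719 genes (0%). At an unadjusted p under 0.05 there were 517 genes, and DESeq2 called 179, with Ins1 not among them and no p given for Ghrl. Over all genes tested the median was −0.20 on the log2 scale, and −0.77 when scaled by library totals, so part of any log2 difference here depends on the scaling. For Ghrl it was 7.84 when scaled by library totals (edgeR adjusted p = 0.229). Ghrl passed in 1 alternative, with the replicate number as a block in place of sex (log2 fold change 10.51, edgeR adjusted p = 0.00756), a fit with 1 residual degree of freedom. In that fit the difference came only from libraries sharing a number, HET 11 with WT 11 and HET 16 with WT 16. It thus rested on the HET libraries with the most stomach mucosa counts.

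In HOM against HET pancreas, no member separated the groups. By exact permutation 0 of 8 members passed an unadjusted p of 0.05, against 376 of 17684 genes (2.13%). Mean Ghrl was lower in HOM (HOM minus HET −477 CPM, exact permutation p = 0.679, n = 3 and 5), and it was higher in HOM by 57.4 CPM once HET 11 and HET 16 were left out (exact permutation p = 0.2, n = 3 and 3). The sign of the Ghrl difference therefore rested on those 2 libraries, and without HET 11 alone it was −118 CPM. For Ins1 the difference was −35.7 CPM (exact permutation p = 0.929) and for Chga −52.2 CPM (exact permutation p = 0.714), each with an adjusted p of 1. Here too only a full separation can pass 56 splits, so the count by library repeats the permutation result. No member was higher, or lower, in every HOM than in every HET library, as 344 (1.95%) and 32 (0.181%) of the genes were. At such low shares, 0 of 8 does not set the members apart from other genes. Pooled, HOM over HET was 0.0494 for Ghrl (95% exact interval 0.0322 to 0.0725), 4.48 for Ins1 (3.21 to 6.22) and 0.595 for Sst (0.248 to 1.23), and Chga in HOM was at least 15.0-fold lower. These intervals leave out the spread between libraries. Pooled and mean Ins1 went opposite ways here too, with HET 11 giving 1326541 counts to the HET pool and 0 of Ins1.

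The edgeR log2 fold change (HOM over HET) was −4.05 ± 2.91 for Ghrl (SE, edgeR adjusted p = 0.801) and −0.48 ± 1.96 for Ins1 (SE, adjusted p = 0.997). Scaled by library totals it was −1.62 for Ghrl (edgeR adjusted p = 0.999). On the CPM scale, TMM effective library sizes moved the mean Ghrl difference to −2768 CPM. No member and no gene was called (0 of 3719, 0%), with 410 genes at an unadjusted p under 0.05. DESeq2 called 35 genes, and gave no adjusted p for Ghrl or Ins1. The HOM and HET libraries are used in more than 1 of these comparisons, as are the WT libraries, so the 3 comparisons are not independent of each other.

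Liver served as background for the members and held none of them. In HET liver the 3-count limits were 1.78 to 11.3 CPM and in WT liver 8.76 and 19.3 CPM. Ghrl at 48.8 to 98.7 CPM in HOM pancreas, and Ins1 in the 5 pancreas libraries that held it, were above all of these limits. None of the 10 members could be tested for HET against WT in liver, where edgeR called 0 of 4803 genes (0%), with 497 genes at an unadjusted p under 0.05 and 15 called by DESeq2. The pancreas and liver tables were deposited separately, so these levels are set side by side with no test.

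Other endocrine genes were looked at in lists. Of 12 beta-cell transcription factors, 7 had pancreas counts, and Nkx6-1, Nkx2-2, Neurod1, Pax4 and Mlxipl were at 0 in all 11 libraries. Pax6, a factor shared by all islet endocrine cells, held 1171 of the list's 1295 counts and was found in every library, at 967 ± 468 CPM in HOM (SD, n = 3), 623 ± 735 CPM in HET (SD, n = 5) and 1038 ± 770 CPM in WT (SD, n = 3). Isl1, which also acts in all islet endocrine cells, had 15 counts in HOM 21, 12 in HET 10, 2 in HET 11 and 10 in WT 16. Neurog3, the factor that starts endocrine differentiation, had 10 counts in HOM 21 and 27 in WT 16. Pax6 was thus the one factor of the list seen in all 11 libraries. In the libraries with 0 Ins1 counts it had 47 counts in HOM 19, 55, 9 and 272 in HET 9, 11 and 15, and 148 and 18 in WT 11 and WT 12. Foxa2, a factor of gut and pancreas epithelium, had 28 of its 35 counts in HET 11.

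Of 13 genes of glucose sensing and secretion in the table, 7 had counts. Abcc8, the sulfonylurea receptor subunit of the beta-cell potassium channel, had 24 counts in HET 11 and 32 in HET 16 and 0 elsewhere, the same libraries that held Chga. Slc2a2, the glucose transporter of mouse beta cells, had 4 counts in HOM 19 and 15 in HET 15. The zinc transporter gene Slc30a8, the islet phosphatase gene G6pc2 and Ucn3, all typical of mature beta cells, were at 0. Of 15 granule and prohormone-processing genes, 12 had counts and Chgb, Scg2 and Pcsk1n had 0. Scg3, a granin that binds chromogranin A, had 51, 0 and 75 counts in HOM 10, 19 and 21, 0, 56, 31, 0 and 28 in HET 9, 10, 11, 15 and 16, and 50, 0 and 31 in WT 11, 12 and 16. Unlike Chga, Scg3 was found in all 3 genotypes.

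Of 11 genes of alpha, delta and PP cells, 6 had counts. Pou3f4, a transcription factor expressed in alpha cells, had 19 counts in HOM 21, 30 in WT 12 and 4 in WT 16. Gcg was at 0 in all 3 of these libraries. Of 11 gastric and gut endocrine genes, 6 had counts, and gastrin (Gast) and the ghrelin acyltransferase gene Mboat4, which modifies ghrelin, were at 0 in all 11. Hdc, the histamine-forming enzyme of stomach enterochromaffin-like cells, was at 152 ± 73.2 CPM in HOM (SD, n = 3), 62.4 ± 97.1 CPM in HET (SD, n = 5) and 81.2 ± 115 CPM in WT (SD, n = 3), so its levels overlapped between genotypes. The gastric and gut endocrine list was lowest, apart from WT 11, in HET 16 and HET 11 (1.49 and 5.28 CPM summed), where Ghrl was highest. Of 17 hormone receptor genes, 8 had counts, and the glucagon receptor gene Gcgr, Sstr3, Sstr4 and Sstr5 were among the 9 at 0. Sstr1, a somatostatin receptor, was at 96.0 ± 84.0 CPM in HOM (SD, n = 3), 86.3 ± 121 CPM in HET (SD, n = 5) and 324 ± 439 CPM in WT (SD, n = 3).

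**Figure D4:**
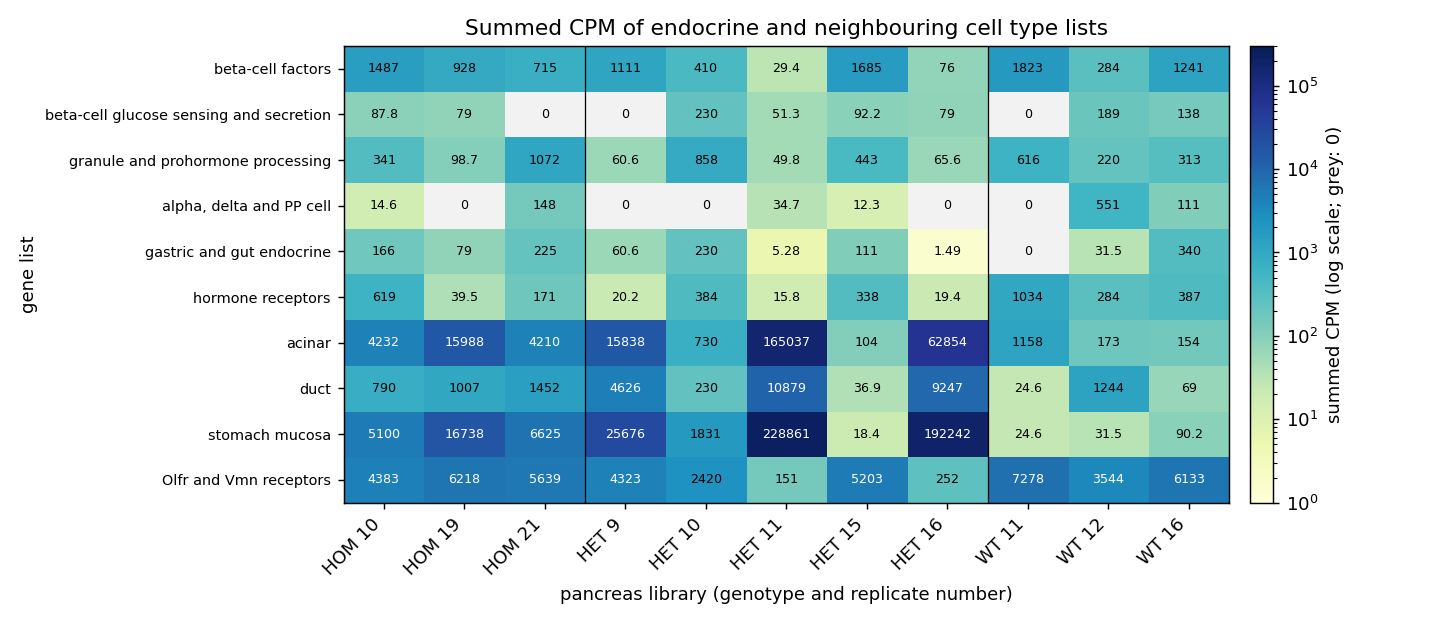
Summed level (CPM, log colour scale, grey for 0) of 10 gene lists (rows) in the 11 pancreas libraries (columns, HOM, HET, WT). HET 11 and HET 16 are highest for stomach mucosa (228861 and 192242 CPM) and lowest for beta-cell factors (29.4 and 76.0 CPM).

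From these 6 endocrine lists edgeR could test Pax6, Cacna1d, Scg3, Hdc, Igf1r and Sstr1, and none was called in any of the 3 pancreas comparisons. In HOM against WT the stomach mucosa list had 10 tested genes, all with a positive log2 fold change (median 8.02) and none called, beside 6.12 for Ghrl. In HET against WT all 10 were positive (median 11.90), beside 10.17 for Ghrl. In HOM against HET all 10 were negative (median −3.85), beside −4.05 for Ghrl. These genes summed to at most 90.2 CPM in WT, so they passed the abundance filter through HOM and HET libraries, as did Ghrl. Their positive signs against WT follow from that and are no separate support. The signs were the same for the medians of the tested acinar genes (9.11, 13.31 and −4.20 in these 3 comparisons), duct genes (5.80, 10.53 and −5.31) and red blood cell genes (0.81, 6.12 and −4.90), on the same libraries. Only 3 acinar genes were tested, and 1 of them had the opposite sign in each comparison. The 5 tested duct genes all shared the sign. Of 3 tested red blood cell genes, 1 had the opposite sign in HOM against WT.

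The genes whose levels were most like those of a member were found from the Pearson r of log2(CPM + 10) over the 11 pancreas libraries, among 5846 genes with at least 20 counts, for members with counts in at least 4 libraries. For Ghrl they were Stard10 (r = 0.977), Rps18 (r = 0.972) and Gkn2 (r = 0.967), the last a secreted protein of the stomach lining. Like Ghrl, these 3 were at their highest count in HET 11 and at 0 in WT 11, WT 12 and HET 10. For Ins1 they were Dmrta2 (r = 0.929), Exoc3 (r = 0.924) and Pebp4 (r = 0.920), which, like Ins1, had counts in HOM 10, HOM 21, HET 10 and WT 16. These points share libraries and depth, and the values are a description.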

How the data were processed

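Bulk MARS-seq counted 3′ transcript ends in 11 pancreas and 7 liver libraries. Per the labels' protocols, RNA was extracted with TRI reagent. Per the submitters' processing notes, cutadapt, STAR and build mm10 were used. Their versions, the counting tool, its annotation, use of strand and handling of molecular barcodes are not given in the sources used here. As deposited, the values are whole-number counts per gene, 1 table a tissue, which the authors' file names call corrected, without saying for what. If the correction altered depth, intervals and p-values would be off.

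Groups were read from the labels, with 0 columns unassigned. Counts were scaled to CPM. Members were compared by two-sided exact permutation of mean CPM (scipy 1.17.1) and by edgeR 4.0.16 in R 4.3.3 (filterByExpr, TMM, robust quasi-likelihood F test, genotype and sex in pancreas, genotype in liver), fitted over all genes with Benjamini-Hochberg adjustment and a threshold of 0.05. The common dispersion was 2.75 in pancreas (7 residual degrees of freedom) and 0.125 in liver. The pancreas dispersion corresponds to a biological coefficient of variation of 166%. Shares of single libraries have Wilson intervals, and pooled ratios exact intervals, at 95%.

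The text names all 10 members, genes overlapping them, up to 4 genes with the most counts of each of 12 gene lists (159 genes) besides olfactory and vomeronasal receptors, genes at 0 in a list, and the 3 genes most like a member. Some genes that this rule takes in are not reported here. Members and lists were chosen with earlier results of these data known. Positions are from GENCODE mm10. Alternatives were DESeq2 1.42.0, other scalings and filters, other covariates or libraries, and leaving out each library.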

Additional observations from a re-analysis of the deposited data

Results flagged for a closer look

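Of 21 groups of 4 to 10 values checked for a library far from the rest, 6 stood out. Chance gives about 1 in 20 for values that vary smoothly, a rate that does not hold where all other libraries are at 0 and any single count stands out, as for Sst, Pdx1, Ppy and Otub2. All 6 were in HET pancreas, with 1 library above the other 4. HOM and WT pancreas, with 3 libraries each, and WT liver, with 2, were too small for this check. In HET liver every member was at 0, so no member could stand out outside HET pancreas. Ins1 was at 756 CPM in HET 10, Sst at 60.3 CPM and Pdx1 at 12.8 CPM in HET 11, and Ppy at 6.15 CPM in HET 15. For Ins1 HET 16 held 44.7 CPM and the rest 0. Otub2 stood out in HET 16 at 1.49 CPM, on 1 count. The summed level of red blood cell genes was 2041.5 CPM in HET 16, against 61.5 to 323 CPM in the other HET libraries.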

How the results depend on the processing

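Of 372 values recomputed under an alternative, 27 turned direction, 22 counts moved and 1 value newly passed. The other 322 include many that could not change. No member could be tested in liver, or with only the HET and WT groups. Ghrl had no p with DESeq2, and was not tested without HET 11, without HET 16, without both, or with only the HOM and WT groups. Apart from TMM scaling, the permutation alternatives could not go below p = 0.0571. Where members could be tested, 1 call was made (Ghrl, HET against WT with the replicate block). No pairing by replicate number was seen (correlations of same-numbered libraries −0.038 to 0.067), though the noise of shallow libraries could hide it. The cause of the changes below was not tested.

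Genes called in HOM against WT numbered 2 with DESeq2, 18 with the replicate block, 5 with only the 2 groups, 13 without HET 11 and HET 16, and 0 to 4 leaving out each library (4 without HET 16). In HET against WT they numbered 179 with DESeq2, 23 with library totals, 149 with the block, 146 without sex, 9 without HET 11 and HET 16, and 0 to 92 leaving out each library (43 without HET 9, 92 without HET 15). In HOM against HET they numbered 35 with DESeq2, 7 without HET 11 and HET 16, and 0 leaving out any library. In liver they numbered 15 with DESeq2, 57 with no filter, 6 at a mean of 10 CPM, 41 with the block, and 0 to 6 leaving out each library (1 without HET 1, 6 without HET 5, 4 without WT 1).

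The Ins1 log2 fold change, HOM against WT, turned to 0.032 with no filter, 6.87 in males only, 6.95 with only the 2 groups and 4.01 without HET 11 and HET 16, and ran from −6.15 to 6.86 leaving out each library. In HET against WT it turned to −0.29 with library totals, −0.11 at a mean of 10 CPM and −0.89 with the block, and ran from −5.36 to 8.10. In HOM against HET it ran from −1.53 to 1.17. The Ins1 difference in CPM turned to 124 in males only (HOM against WT), the same libraries as without WT 16. Leaving out each library, it ran from −85.2 to 124 (HOM against WT), −128 to 160 (HET against WT, negative without HET 10, WT 11 or WT 12) and −97.9 to 113 (HOM against HET, positive without HOM 19 or HET 10). So no direction of Ins1 held. Ghrl, HOM against HET, turned to a log2 fold change of 5.63 with the block and to 57.4 CPM without HET 11 and HET 16. The block value came from HOM 10 and HET 10 alone, with 10 and 0 Ghrl counts. Over the 9 fits that left out a library other than HET 11 or HET 16, the Ghrl log2 fold change ran from 5.76 to 6.77 (HOM against WT) and from 10.34 to 11.29 (HET against WT).

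Depth limits the members: a 0 in the shallowest pancreas library allows 60.6 CPM.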
